A study of Homo sapiens with 4 samples.

Results

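The 51 genes described here encode the glutathione and thioredoxin systems, the transcription factor NRF2 with its sensor, and enzymes that NRF2 is known to induce. They were chosen by symbol, as a fixed list, from the 57820 gene models of an RNA-seq experiment in G401, a cell line established from a kidney rhabdoid tumour. Of its 4 libraries, 2 were made after CRISPR knockout of BRD9 (BRD9 KO) and 2 from the LacZ control. The cells of both groups were grown in DMEM with serum. The study recovered no clones of G401 lacking BRD9, and the labels do not say whether the knockout libraries come from a pool of edited cells. BRD9 is a subunit of the SWI/SNF chromatin remodelling complex without SMARCB1. The question is which transcripts differ once it is lost from cells that have no SMARCB1.

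Cells keep peroxides and reactive electrophiles low through a pair of thiol systems. Glutathione, a small peptide made by glutamate-cysteine ligase and glutathione synthetase, serves glutathione peroxidases and transferases, while thioredoxin, recharged by thioredoxin reductase, serves peroxiredoxins, and both draw their electrons from NADPH. NRF2, encoded by NFE2L2, is held low by the sensor KEAP1, a substrate adaptor of the CUL3 ubiquitin ligase. When KEAP1 is modified, NRF2 accumulates, pairs with a small MAF protein and binds the antioxidant response element (ARE) near its target genes. The repressor BACH1 competes for the same element and is known for holding HMOX1 silent until haem is present. Much of the control of NRF2 is at the level of its protein, which RNA-seq does not measure.

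The element is shown here for a selection of members, because the same letters stood upstream of genes that were higher, lower, not called and silent. Matches upstream of members that were tested but not called, GPX4, FTL, PRDX2 and AKR1C1 among them, are not printed. Also not printed are those of BLVRA, FTH1, GSTA4 and TALDO1, which were called lower. The core of the ARE, TGACNNNGC, was searched on both strands of the RefSeq promoters (GRCh38.p14, 250 bases before to 50 bases after the start of the gene). Of the 51 members 42 matched a promoter, and 8 of these 42 held the core (19.0%), against 13.6% of all 27305 promoters. The longer form TGACTCAGC, which contains the AP-1 letters TGACTCA, was searched on both strands of the 10 kb upstream of each gene on GRCh37, the build of the files. It was found upstream of 11 of 49 members and of 12.9% of 14807 tested genes. HMOX1 had 4 copies there, a number that 2 tested genes reached. Among the 11 members, HMOX1 was called higher, and NQO1, BLVRA, FTH1, GSTA4 and TALDO1 were called lower. Each stretch below is written along the strand of its gene, with the element in capitals, in either orientation, and with its distance in bases from the annotated start.
HMOX1 upstream, chr22:35768002-35768030, plus strand, GRCh37, -8342: tgtttttcctGCTGAGTCAcggtcccgag
HMOX1 upstream, chr22:35768060-35768088, plus strand, GRCh37, -8284: atctgttttcGCTGAGTCAcggtcccggt
HMOX1 upstream, chr22:35768089-35768117, plus strand, GRCh37, -8255: gtctgttttcGCTGAGTCAcggtctagag
HMOX1 upstream, chr22:35773139-35773167, plus strand, GRCh37, -3205: gctagattttGCTGAGTCAccagtgcctc
NQO1 upstream, chr16:69760900-69760928, minus strand, GRCh37, -347: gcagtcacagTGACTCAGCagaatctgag
GSTP1 promoter, chr11:67583736-67583764, plus strand, GRCh38.p14, -66: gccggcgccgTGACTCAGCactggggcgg
GCLM promoter, chr1:93909446-93909474, minus strand, GRCh38.p14, -34: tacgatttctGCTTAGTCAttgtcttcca
TXNRD1 promoter, chr12:104215670-104215698, plus strand, GRCh38.p14, -99: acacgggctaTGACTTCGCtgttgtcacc
ME1 promoter, chr6:83431170-83431198, minus strand, GRCh38.p14, -137: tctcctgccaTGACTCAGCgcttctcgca
A match of letters is a description of the sequence and not evidence of binding. OSGIN1, SRXN1 and GCLC had no copy of the longer form in their 10 kb window. Each window lay before the outermost annotated start of its gene, and sequence upstream of starts further inside a gene was not covered by it. The absence therefore holds for these windows alone.

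The libraries held between 15053247 and 19559290 estimated counts. The BRD9 transcript stood at 29.4 and 26.8 counts-per-million (CPM) in BRD9 KO, against 48.2 and 53.8 CPM in LacZ control (-0.86 on the log2 scale, edgeR adjusted p = 2.84e-09), in the direction the labels give. Of the markers checked for the identity of the line, SMARCB1 and PTPRC had 0 counts in every library, EPCAM and CDH1 stayed under 0.4 CPM, and the mesenchymal gene VIM was at 1269 and 1276 CPM in BRD9 KO, against 1788 and 1797 CPM in LacZ control. Counts were scaled by TMM, and a call required an adjusted p under 0.05 in the quasi-likelihood test of edgeR over 15288 genes. Every log2 fold change is that of BRD9 KO over LacZ control. In bulk RNA a change per cell and a change in the share of cells that express a gene cannot be told apart.

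Most of these genes are abundant in G401. The members together made up 1.29% and 1.28% of all transcripts (TPM, transcripts-per-million, a scale corrected for gene length) in BRD9 KO, against 1.27% and 1.27% in LacZ control. Ferritin, the iron store, was the largest contributor, with 34.0% and 33.9% of the members' TPM in BRD9 KO and 34.4% and 34.6% in LacZ control. The heavy chain FTH1 averaged 2903 TPM in BRD9 KO and 2948 TPM in LacZ control, and the light chain FTL 1469 TPM in BRD9 KO and 1431 TPM in LacZ control. Next came the peroxiredoxin PRDX1 (1168 TPM in BRD9 KO, 1101 TPM in LacZ control), the transferase GSTP1 (871 TPM in BRD9 KO, 987 TPM in LacZ control) and thioredoxin reductase TXNRD1 (739 TPM in BRD9 KO, 687 TPM in LacZ control). Of the 51 members 22 exceeded 100 TPM on average. At the other end, ME1, the cytosolic malic enzyme, and MGST1, a microsomal transferase, had 0 counts in every library, which allows at most 0.154 to 0.199 CPM per library for counting error only. GPX1, the widespread cytosolic peroxidase, had 2 and 2 counts in BRD9 KO and 0 and 2 in LacZ control, and whether the deposited quantification misses reads of GPX1 was not tested. GPX2, GPX7, MGST2 and TXNIP, which binds and restrains thioredoxin, were under 1 CPM in every library.

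**Figure D1:**
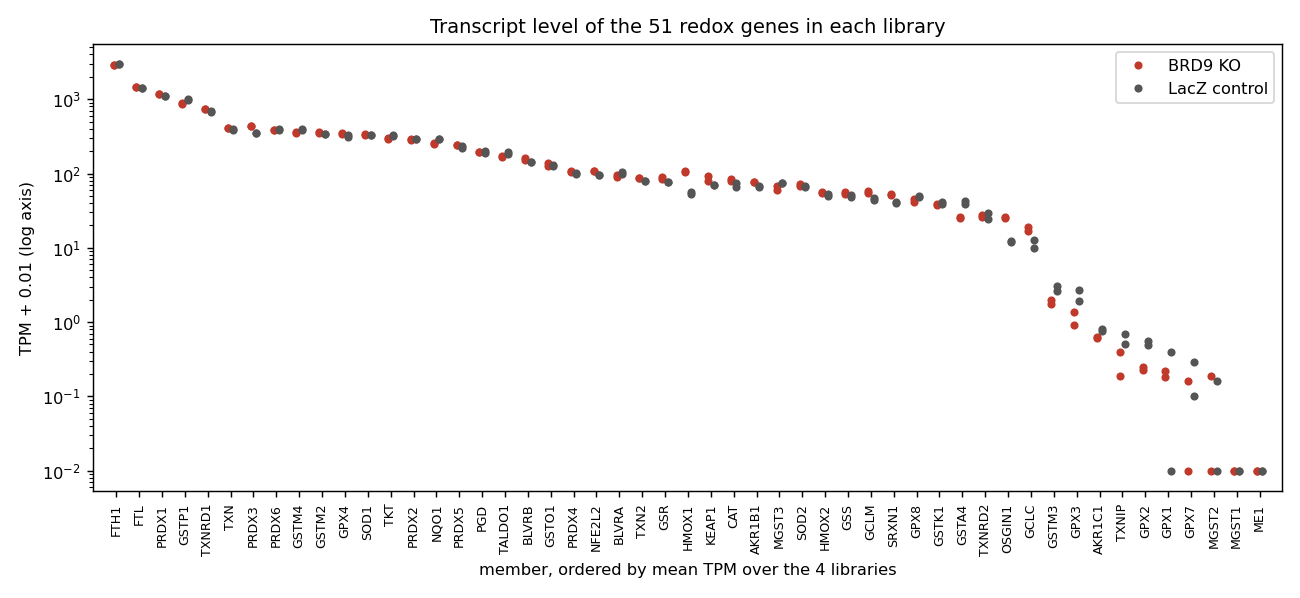
Transcript level of the 51 redox genes. Each point is 1 library (TPM + 0.01 on a log axis, so that a gene listed at 0 sits at 0.01), with BRD9 KO in red and LacZ control in grey, and genes are ordered by their mean over the 4 libraries. Levels run from FTH1 at 2903 TPM in BRD9 KO and 2948 TPM in LacZ control down to MGST1 and ME1 at 0.

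After the filter on low counts 44 members were tested, and 7 (TXNIP, GPX1, GPX2, GPX7, MGST1, MGST2 and ME1) were not. Of the 44, 17 were higher in BRD9 KO, 10 were lower and 17 did not pass. The share called was 61.4%, against 38.6% of all genes tested, with 38.6% of members higher against 20.5% of all genes and 22.7% lower against 18.1%. The tested members were more abundant than most genes, with a median of 99.6 TPM against 17.1 TPM over all genes tested, and more counts give a smaller error. Among genes above 50 TPM the share called was 64.7% for the members (22 of 34) and 60.5% for all 3337 such genes. The number of calls is therefore close to that of other genes of high level. The libraries of the groups did not overlap in CPM for 35 of the 44 members, against 68.6% of all genes tested. The changes were small as a rule: 21 of the 27 called members differed by less than 1.2-fold and 3 by at least 1.5-fold, where 6.86% of all genes tested were called at 1.5-fold or more. The median log2 fold change was 0.04 over the tested members and -0.01 over all genes tested.

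**Figure D2:**
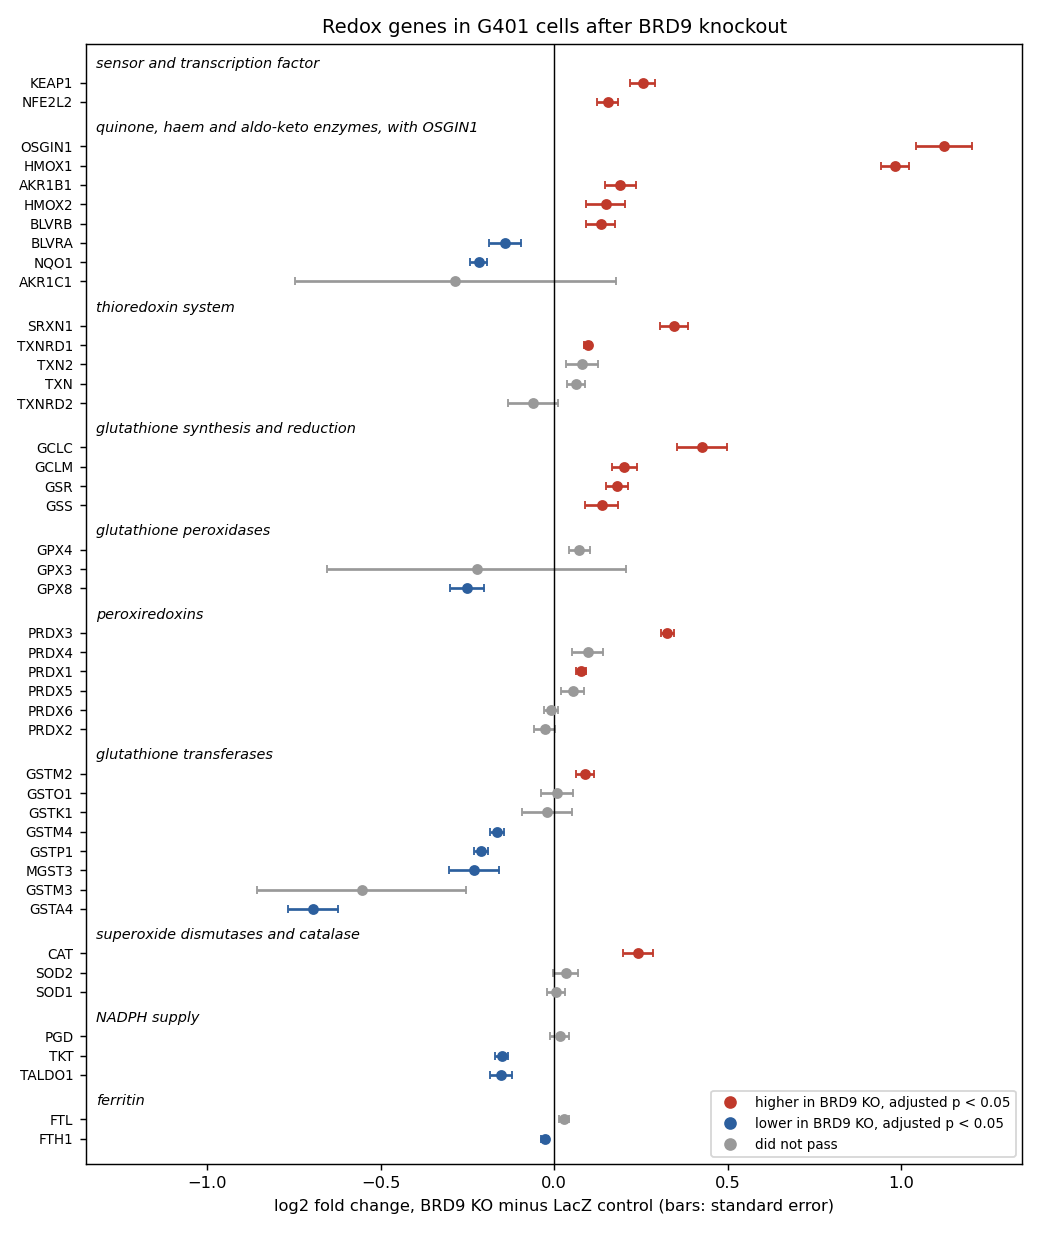
Log2 fold change of the 44 tested members, BRD9 KO minus LacZ control, by role. Points are edgeR estimates and bars their standard errors (n = 2 libraries per group), in red for higher, blue for lower and grey for members that did not pass. OSGIN1 (1.12) and HMOX1 (0.98) lie far to the right of the others and GSTA4 (-0.70) and GSTM3, which did not pass, lie furthest to the left.

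The transcription factor and its sensor were both higher. NFE2L2 (chromosome 2, 178083395 to 178257484 on GRCh37) stood at 153 and 160.1 CPM in BRD9 KO, against 139 and 142 CPM in LacZ control (0.15 ± 0.03, standard error, edgeR adjusted p = 0.000388). KEAP1 (chromosome 19, 10596801 to 10614234) stood at 95.2 and 95.8 CPM in BRD9 KO, against 79.9 and 80.1 CPM in LacZ control (0.26 ± 0.04, standard error, edgeR adjusted p = 1e-05). For neither gene did the libraries of the groups overlap. The KEAP1 call did not hold with limma on log2(TPM + 1) (adjusted p = 0.0563, range over the alternatives 9.2e-11 to 0.0563). Exons of NFE2L2 overlap those of AGPS and HNRNPA3 on the opposite strand and of AC074286.1 on its own, and the kit named in the methods does not mark strand.

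The largest rises were those of OSGIN1 and HMOX1. HMOX1, the inducible haem oxygenase that splits haem into biliverdin, iron and carbon monoxide (chromosome 22, 35776354 to 35790207), was at 113.9 and 109.1 CPM in BRD9 KO, against 58.0 and 55.1 CPM in LacZ control. The means were 111 ± 3.41 CPM and 56.6 ± 2.06 CPM (SD, n = 2 each), and the log2 fold change was 0.98 ± 0.04 (standard error, edgeR adjusted p = 2.44e-13). OSGIN1, a growth inhibitor induced by oxidative stress (chromosome 16, 83964916 to 83999937), was at 27.5 and 27.9 CPM in BRD9 KO, against 12.2 and 13.1 CPM in LacZ control, and rose by 1.12 ± 0.08 (standard error, edgeR adjusted p = 1.19e-09). Its exons overlap those of MLYCD on the same strand in the annotation used here for positions. The fitted fold was 1.97 for HMOX1 and 2.18 for OSGIN1, and for neither gene did the libraries of the groups overlap. Of the 13 alternatives run, none ended either call.

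NQO1, the quinone reductase often read as a marker of NRF2 activity, went the other way. It was at 179.9 and 184.9 CPM in BRD9 KO, against 212.8 and 211.2 CPM in LacZ control, a fall by 0.22 on the log2 scale (standard error 0.03, chromosome 16, 69740899 to 69760571, edgeR adjusted p = 1.05e-06), and it passed in every alternative. NQO1 has the ARE printed above at -347, and HMOX1 has the same letters in the opposite orientation at -3205. Both stretches lie in annotated exons. The aldose reductase gene AKR1B1 rose by 0.19 (edgeR adjusted p = 0.00228). AKR1C1, a hydroxysteroid dehydrogenase and strong NRF2 target in many epithelial cells, was barely present, at 0.616 and 0.674 CPM in BRD9 KO and 0.597 and 0.960 CPM in LacZ control, and did not pass (-0.28, edgeR adjusted p = 0.67).

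The other enzymes of haem breakdown moved little. HMOX2, the constitutive haem oxygenase, was at 39.0 and 38.2 CPM in BRD9 KO and 35.3 and 34.4 CPM in LacZ control (0.15, edgeR adjusted p = 0.0463). This call held in 4 of 13 alternatives only and was lost without any 1 of the 4 libraries, where the adjusted p lay between 0.0774 and 0.187 (range over the alternatives from 0.0308 to 0.273). The biliverdin reductases parted, BLVRB rising by 0.13 (edgeR adjusted p = 0.0147) and BLVRA falling by 0.14 (edgeR adjusted p = 0.0175). Neither passed with DESeq2 (adjusted p = 0.138 for BLVRB and 0.181 for BLVRA) or with limma on log2(TPM + 1) (0.0702 and 0.111). BLVRA was also lost when BRD9 KO replicate 1 or LacZ control replicate 2 was left out (adjusted p = 0.0662 and 0.189, range 0.00772 to 0.189), and BLVRB without BRD9 KO replicate 2 or either LacZ control replicate (0.147, 0.0629 and 0.132, range 0.00192 to 0.147).

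**Figure D3:**
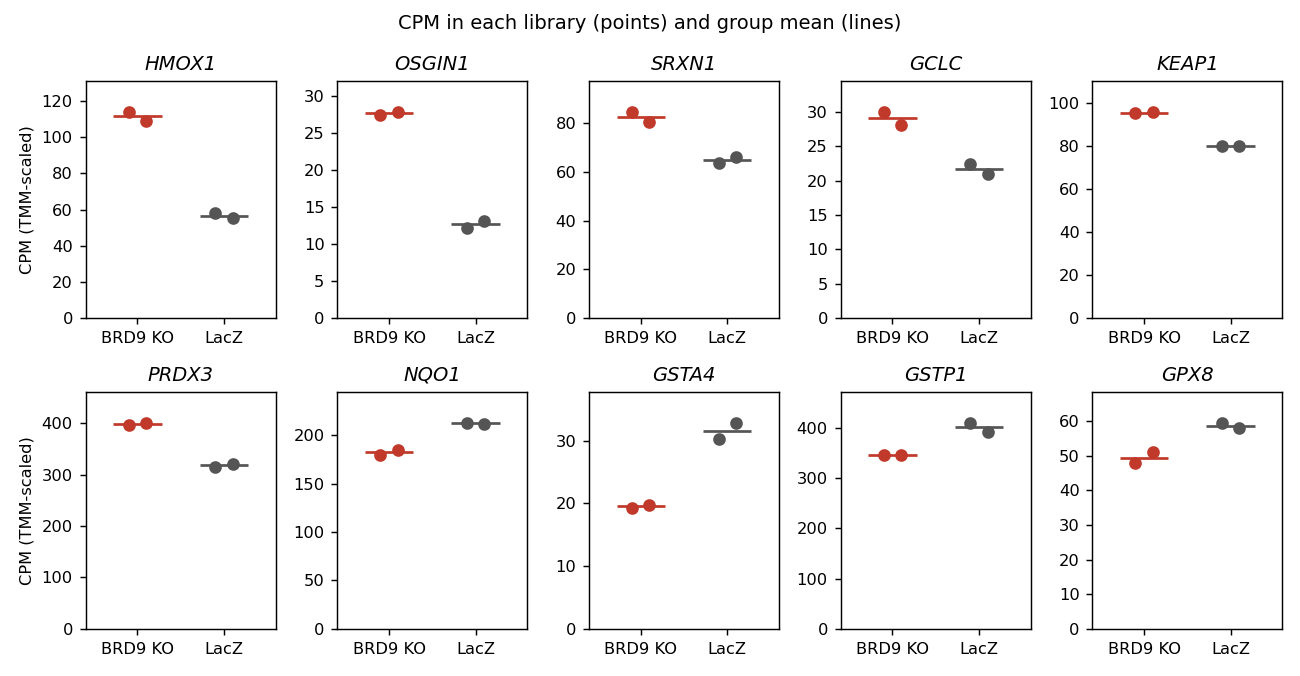
CPM of 10 members in each library, on axes that start at 0. Points are libraries and lines group means (n = 2 each), with BRD9 KO left and LacZ control right in each panel. HMOX1 (113.9 and 109.1 CPM in BRD9 KO, against 58.0 and 55.1 CPM in LacZ control) and OSGIN1 stand out. All 10 were picked from the called members, and in no panel do the groups overlap. Groups did not overlap for 68.6% of all genes tested.

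All 4 genes that make and recharge glutathione were called higher, where 20.5% of all genes tested were higher and 60.5% of those above 50 TPM were called in either direction. GSS, among the 4, held in 9 of 13 alternatives. GCLC, the catalytic subunit of glutamate-cysteine ligase and the rate-limiting step of glutathione synthesis (chromosome 6, 53362139 to 53481768), was at 30.0 and 28.1 CPM in BRD9 KO, against 22.4 and 21.0 CPM in LacZ control. The log2 fold change was 0.43 ± 0.07 (standard error, edgeR adjusted p = 9.63e-05). GCLM, the modifier subunit that lowers the demand of the enzyme for substrate, was at 95.7 and 94.8 CPM in BRD9 KO and 82.4 and 83.2 CPM in LacZ control (0.20 ± 0.04, standard error, edgeR adjusted p = 0.00013). Its promoter holds the ARE core printed above. GSR, the reductase that regenerates glutathione with NADPH, rose by 0.18 (edgeR adjusted p = 0.000133), and GSS, the synthetase, by 0.14 (edgeR adjusted p = 0.0274). GSS was lost with DESeq2 (adjusted p = 0.201), with limma on log2(TPM + 1) (0.171) and when BRD9 KO replicate 1 or LacZ control replicate 2 was left out (0.238 and 0.242, range 0.00528 to 0.242), and its exons overlap those of MYH7B on the opposite strand. Summed over the 4 genes, the level was 219 and 214 TPM in BRD9 KO, against 184 and 182 TPM in LacZ control.

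In the thioredoxin system the larger of 2 rises in fold was that of SRXN1, sulfiredoxin, which repairs over-oxidised peroxiredoxins. SRXN1 (chromosome 20, 627259 to 633844) was at 84.6 and 80.4 CPM in BRD9 KO, against 63.8 and 66.1 CPM in LacZ control (0.35 ± 0.04, standard error, edgeR adjusted p = 1.05e-06). Its posterior standard deviation, the error RSEM gives for dividing shared reads, reached 1.74% of the count, and its exons overlap those of another gene model on the same strand. TXNRD1, the cytosolic thioredoxin reductase, a selenoprotein, was at 1262 and 1261 CPM in BRD9 KO, against 1182 and 1178 CPM in LacZ control. That rise of 0.10 ± 0.01 (standard error, edgeR adjusted p = 3.58e-07) is 1.07-fold. Thioredoxin itself (TXN, 0.06, edgeR adjusted p = 0.0566) did not pass, nor did its mitochondrial counterpart TXN2 (0.08, adjusted p = 0.178) and the mitochondrial reductase TXNRD2 (-0.06, adjusted p = 0.552). TXN passed with a replicate block (adjusted p = 0.0462) and with the filter left off (0.0371), range over the alternatives 0.0371 to 0.296.

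Among the peroxiredoxins, which reduce hydrogen peroxide with a reactive cysteine, only the mitochondrial PRDX3 and the cytosolic PRDX1 passed. PRDX3 (chromosome 10, 120927232 to 120938324) was at 396.36 and 400.95 CPM in BRD9 KO, against 315.71 and 319.96 CPM in LacZ control, a rise of 0.33 ± 0.02 (standard error, edgeR adjusted p = 3.17e-11). PRDX1 rose by 0.08 (edgeR adjusted p = 0.000244). PRDX4 of the endoplasmic reticulum (0.10), PRDX5 (0.05), PRDX2 (-0.03) and PRDX6 (-0.01) did not pass, with edgeR adjusted p between 0.0981 and 0.736. The 95% interval of PRDX6 ran from -0.05 to 0.03 on the log2 scale and that of PRDX2 from -0.09 to 0.04. Exons of PRDX1 overlap those of MMACHC on the opposite strand.

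The glutathione peroxidases were represented mainly by GPX4, GPX8 and, at a trace level, GPX3, which had 13 and 13 counts in BRD9 KO and 13 and 14 in LacZ control and did not pass (-0.22, edgeR adjusted p = 0.724). GPX4, the selenoprotein that removes lipid peroxides and guards against ferroptosis, was at 147 and 143 CPM in BRD9 KO, against 139 and 137 CPM in LacZ control. The difference of 0.07 (95% interval 0.01 to 0.14) did not pass (edgeR adjusted p = 0.0605), although the libraries did not overlap. It passed without BRD9 KO replicate 2 (adjusted p = 0.0445), with a replicate block (0.0496) and with no filter (0.0356, range over the alternatives 0.0356 to 0.348). GPX8, a membrane protein of the endoplasmic reticulum, was at 47.8 and 51.1 CPM in BRD9 KO, against 59.6 and 57.9 CPM in LacZ control, and fell by 0.25 on the log2 scale (standard error 0.05, edgeR adjusted p = 0.000364). The GPX8 call was lost with limma on log2(TPM + 1) (adjusted p = 0.105, range 1.13e-05 to 0.105).

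The transferases join glutathione to electrophiles. Of 8 tested, 4 fell, 1 rose and 3 did not pass, where 18.1% of all genes tested were lower and 20.5% higher, and no difference between these counts was tested. GSTA4, which removes the lipid peroxidation product 4-hydroxynonenal (chromosome 6, 52842746 to 52860102), had the largest fall among the 44 tested members. It was at 19.3 and 19.8 CPM in BRD9 KO, against 30.3 and 32.9 CPM in LacZ control, and fell by 0.70 on the log2 scale (standard error 0.07, edgeR adjusted p = 2.47e-07), to 61.9% of the control level. GSTP1, the most abundant transferase of the line, was at 347 and 346 CPM in BRD9 KO, against 410.0 and 391.5 CPM in LacZ control (-0.21, edgeR adjusted p = 1.09e-07). Its promoter holds the ARE printed above. MGST3, a microsomal enzyme, fell by 0.23 (edgeR adjusted p = 0.0155), a call lost with DESeq2 (adjusted p = 0.143), with limma on log2(TPM + 1) (0.0703) and without BRD9 KO replicate 2 or either LacZ control replicate (0.153, 0.0532 and 0.118, range 0.00888 to 0.153). GSTO1 (0.01) and GSTK1 (-0.02) did not pass.

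The mu-class transferases GSTM4, GSTM2 and GSTM3 lie in a cluster on chromosome 1, between 110198721 and 110283660, and the first of these fell while GSTM2 rose. GSTM4 was at 272 and 272 CPM in BRD9 KO, against 306 and 304 CPM in LacZ control (-0.17, edgeR adjusted p = 1.84e-06). GSTM2 was at 229 and 223 CPM in BRD9 KO and at 208 and 216 CPM in LacZ control (0.09, edgeR adjusted p = 0.00897). The GSTM2 call was lost with DESeq2 (adjusted p = 0.0944), with limma on log2(TPM + 1) (0.115) and when BRD9 KO replicate 1 or LacZ control replicate 1 was left out (0.0819 and 0.128, range 0.00155 to 0.128). GSTM3, at 1.64 and 1.29 CPM in BRD9 KO and 1.92 and 2.40 CPM in LacZ control, did not pass (-0.555, edgeR adjusted p = 0.157). With the counts of its named pseudogenes added, its log2 fold change was -0.105 (edgeR adjusted p = 0.769). These genes are near relatives that share reads. The posterior standard deviation was at most 0.433% of the count for GSTM2, 0.244% for GSTM4 and 7.70% for GSTM3, and exons of GSTM2 overlap those of GSTM1.

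Of the superoxide dismutases and catalase, catalase alone passed. CAT was at 94.8 and 100.1 CPM in BRD9 KO, against 78.5 and 85.7 CPM in LacZ control (0.24, edgeR adjusted p = 0.000171), and was lost with limma on log2(TPM + 1) (adjusted p = 0.0663, range 6.08e-10 to 0.0663). The cytosolic SOD1 was level, at 181 and 182 CPM in BRD9 KO and 181 and 181 CPM in LacZ control, with a 95% interval from -0.05 to 0.06 on the log2 scale. The mitochondrial SOD2 was at 0.03 (95% interval -0.04 to 0.11). The interval of each excludes a change of 1.2-fold.

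Of the 3 tested members from the pentose phosphate pathway, 2 fell and PGD did not pass. Over all genes tested 18.1% were lower, and 60.5% of those above 50 TPM were called in either direction. TKT and TALDO1, the transketolase and transaldolase of the non-oxidative branch of the pathway, both fell, by 0.15 in log2 units (edgeR adjusted p = 2.52e-06 and 0.000907). TALDO1 was lost with limma on log2(TPM + 1) (adjusted p = 0.0829, range 4.37e-05 to 0.0829). PGD, an oxidative step that yields NADPH, was at 203 and 209 CPM in BRD9 KO and 198 and 209 CPM in LacZ control and did not pass. The ferritins were nearly level. FTL was at 714 and 709.7 CPM in BRD9 KO and 695 and 702 CPM in LacZ control (0.03, edgeR adjusted p = 0.0993). FTH1 was at 1376 and 1366 CPM in BRD9 KO, against 1392 and 1403 CPM in LacZ control. Its fall by 0.03 in log2 units (edgeR adjusted p = 0.0372) was lost with DESeq2 (0.241), with RLE scaling (0.0533), with no filter (0.689), with limma on log2(TPM + 1) (0.191) and without BRD9 KO replicate 1, BRD9 KO replicate 2 or LacZ control replicate 2 (0.086, 0.311 and 0.183, range 0.000977 to 0.689). Ferritin has many processed pseudogenes. Counts of those named after FTH1 came to under 1% of its own, and adding them to the gene changed no call among the members.

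**Figure D4:**
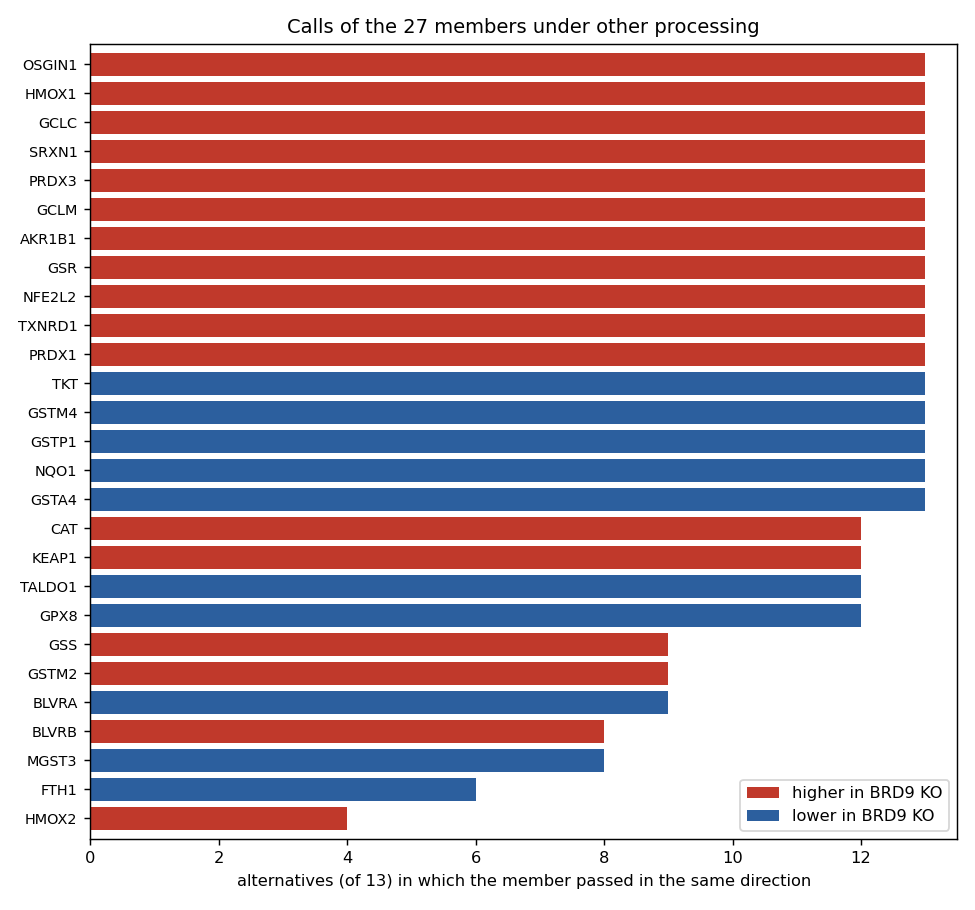
Number of the 13 alternatives in which each of the 27 called members passed in the same direction, in red for members higher and blue for members lower in BRD9 KO. Of the 27, 16 passed in every alternative (11 higher and 5 lower), while HMOX2 held in 4 and FTH1 in 6.

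Over 13 alternatives no called member changed direction. The members that passed in every one were NFE2L2, HMOX1, OSGIN1, AKR1B1, SRXN1, TXNRD1, GCLC, GCLM, GSR, PRDX1 and PRDX3 on the higher side and NQO1, GSTP1, GSTM4, GSTA4 and TKT on the lower side.

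A second list held 85 other genes of the same pathways. Of its 70 tested members, 23 were higher and 14 lower (52.9% called, against 38.6% of all genes tested). No share among genes of like level was computed for this list or its groups. Its calls numbered 13 higher and 8 lower with DESeq2, and 11 and 5 with limma on log2(TPM + 1). Single genes of the list were not followed through the alternatives, so their calls below rest on edgeR alone. Over all genes tested 20.5% were higher and 18.1% lower, and the counts of the smaller groups that follow are descriptions beside these shares. Among regulators of NRF2, 5 of 10 rose and 2 fell. SQSTM1, the autophagy receptor p62 that sequesters KEAP1, was at 406 and 408 CPM in BRD9 KO, against 232 and 230.4 CPM in LacZ control (edgeR adjusted p = 2.22e-17). The relatives of NFE2L2 parted: NFE2L1 rose by 0.31 and NFE2L3 by 0.14 (edgeR adjusted p = 1.54e-10 and 1.82e-07), whereas NFE2, the erythroid member, fell by 1.36 on the log2 scale, to 4.31 and 3.37 CPM in BRD9 KO, against 10.5 and 9.30 CPM in LacZ control (edgeR adjusted p = 1.04e-06). Chosen after their values were seen, the NRF2 partners MAFK and MAFG rose by 0.47 and 0.26 (edgeR adjusted p = 1.09e-05 and 2.95e-05), while MAFF, the third small MAF, did not pass (0.17, edgeR adjusted p = 0.267). BACH1, also named after its value was seen, was at 65.3 and 62.0 CPM in BRD9 KO, against 74.2 and 77.5 CPM in LacZ control (-0.25, edgeR adjusted p = 7.2e-05). CUL3, also named after its value was seen, was at -0.01 and did not pass.

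In the genes of cystine import, NADPH supply and glutathione turnover, 10 of 21 tested rose (47.6%) and 4 fell (19.0%), against 20.5% and 18.1% of all genes tested. The rises included ME2, a mitochondrial malic enzyme (0.39, edgeR adjusted p = 4.49e-09), at 171 and 176 CPM in BRD9 KO and 129 and 136 CPM in LacZ control, and ABCC4, an exporter of organic anions (0.37, edgeR adjusted p = 1.05e-05). Chosen after their values were seen, the chains of the cystine transporter differed. The transport chain SLC7A11, an NRF2 and ATF4 target, was scarce and lower, at 3.28 and 3.86 CPM in BRD9 KO, against 5.51 and 5.04 CPM in LacZ control (-0.57, edgeR adjusted p = 0.0183), while its heavy chain SLC3A2, which also serves other transporters, rose by 0.18 (edgeR adjusted p = 0.00124). Of the other transferases and reductases none of 12 tested rose with edgeR and 2 fell (16.7%, against 18.1% of all genes tested). Among thioredoxin-fold proteins, methionine sulfoxide reductases and selenoproteins, 8 of 27 rose (29.6%) and 6 fell (22.2%), against 20.5% and 18.1% of all genes tested. Among them were SELT, a selenoprotein of the endoplasmic reticulum (0.33, edgeR adjusted p = 2.98e-06), and MSRB3, a methionine sulfoxide reductase (-0.24, edgeR adjusted p = 3.09e-07). Another such reductase, MSRA, named after its value was seen, was higher (0.67, edgeR adjusted p = 0.00656). CCS, the chaperone that loads copper into SOD1, named after its value was seen, fell by 0.33 on the log2 scale, to 40.3 and 40.3 CPM in BRD9 KO, against 50.2 and 51.2 CPM in LacZ control (edgeR adjusted p = 2.54e-05).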

How the data were processed

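Total RNA of 4 libraries (2 BRD9 KO, 2 LacZ control) was sequenced. The submitters' processing notes name STAR, RSEM, DESeq2 and hg19, with no versions, and the methods give STAR as the aligner and RSEM as the quantifier. The deposited expected count is an estimated count per gene, with no scaling between libraries. The deposited posterior mean count and the score for its posterior standard deviation come from the same program, which divides reads shared by related genes. The authors' TPM are corrected for effective length and sum to a constant in each library. The deposited length, a mean over transcripts in bases, was read as a description.

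Expected counts were rounded and tested with edgeR 4.0.16 in R 4.3.3 (TMM, filterByExpr, robust quasi-likelihood, no covariate, two-sided, Benjamini-Hochberg adjustment over 15288 genes). Standard errors and 95% intervals follow from its F statistic. The study used DESeq2, run here as an alternative (1.42.0). The others were limma 3.58.1 on log2(TPM + 1), RLE scaling, library totals, no filter, at least 1 CPM in all 4 libraries, a replicate block, each library left out, posterior mean counts, and added pseudogene counts. The tests were also run on simulated counts with 200 of 15288 genes changed, whereas 5901 genes were called in the data. The outcome of that run is not given and lends these results no weight. Replicates differed by more than sampling noise (chi-square per degree of freedom of 1.59 in BRD9 KO and 1.62 in LacZ control). The methods call them biological replicates, but the labels do not say that they are separate cultures, so p-values reflect the spread of these libraries alone, and that spread may be technical. Intervals for counts of 0 cover counting error only.

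Positions and exon overlaps come from GENCODE v44 on GRCh37, and promoters from RefSeq. Positions were found for 49 of 51 members and for 55538 of the 57820 gene models. This annotation therefore differs from the one that was quantified, and an overlap in it need not hold in the other. Each symbol analysed matched 1 gene model, with SEPX1 matched as MSRB1. PECAM1 was not analysed here. Named in full were called members with a log2 change of at least 0.25, 10 members fixed by name, and the 8 other redox genes of smallest p. Other genes of the second list were named after their values were seen. The members, lists and tests were chosen with earlier results of these data known.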

Additional observations from a re-analysis of the deposited data

How the results depend on the processing

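The replicate numbers are shared by the groups, but nothing marks a shared batch, and the correlation of the difference between replicates 1 and 2 across the groups, over genes, was -0.05. With a replicate block 18 members were higher and 10 lower. The block ended the call of HMOX2 (adjusted p = 0.0527) and added TXN (0.0462) and GPX4 (0.0496), with ranges over the alternatives of 0.0308 to 0.273 for HMOX2, 0.0371 to 0.296 for TXN and 0.0356 to 0.348 for GPX4. With limma on the log2(TPM + 1) scale 11 members were higher and 5 lower, and 11 and 5 of the other redox genes. With DESeq2 the other redox genes numbered 13 higher and 8 lower, and the members 13 and 7, all 20 of them shared with edgeR (21.8% of all genes were called by DESeq2). With no filter on low counts 24 and 12 of the other redox genes were called. The share of all genes called was computed for the main edgeR fit and DESeq2 alone, so the counts of other settings stand without it. Leaving out each library in turn gave 14 to 16 members higher and 7 to 9 lower, 18 to 21 other redox genes higher and 9 to 13 lower (9 without LacZ control replicate 1), and a BRD9 log2 fold change from -0.93 to -0.77. Values of 9 members that had not passed took the opposite sign in some setting, and none of these passed. They were GSTO1 and SOD1 with at least 1 CPM in all 4 libraries (-0.001 and -0.004), SOD1 with library totals (-0.002), PRDX6 with no filter (0.006) and TXNRD2 with limma on log2(TPM + 1) (0.008). With a library left out the ranges were -0.12 to 0.009 for TXNRD2, -0.030 to 0.014 for PRDX6, -0.070 to 0.077 for GSTO1, -0.063 to 0.012 for PRDX2, -0.066 to 0.027 for GSTK1, -0.017 to 0.057 for PGD, -0.57 to 0.11 for AKR1C1 and -0.018 to 0.089 for SOD2. Over all 13 alternatives 42 member calls were weaker and 5 stronger, each in the same direction. Fits with 1 library in a group assume that it varies as the group with both libraries does. With 2 libraries per group no sample could be tested as an outlier, and members under 1 CPM had too few counts for a comparison of small changes.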

Other observations

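The estimated transcript length of a gene, which RSEM averages over its isoforms by their share, was shorter in BRD9 KO for the ligase subunits. It was 2657 and 2855 bases in BRD9 KO and 2970 and 3564 bases in LacZ control for GCLC, and 2845 and 2931 bases in BRD9 KO and 3204 and 3044 bases in LacZ control for GCLM. On the TPM scale, which divides by this length, GCLC averaged 18.0 TPM in BRD9 KO and 11.3 TPM in LacZ control, a larger difference than in counts (0.63 with limma on log2(TPM + 1), against 0.43 with edgeR). A length difference of 0.1 or more on the log2 scale occurred in 21.6% of all genes tested and in 3 of 44 members (GCLC, GCLM and, toward longer transcripts and on few reads, GPX3). Lengths are model estimates and were not tested.

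Genes of selenocysteine insertion, on which TXNRD1 and GPX4 depend for their active site, were named after their values were seen. SEPHS1 was named beside them as a relative of SEPHS2, and not as a gene of that step. SECISBP2, which binds the insertion element, and SEPSECS, which makes selenocysteine on its tRNA, fell by 0.27 and 0.29 on the log2 scale (edgeR adjusted p = 0.00334 and 0.00385), SEPHS1 fell by 0.10 (0.0246) and SEPHS2, the selenophosphate synthetase, rose by 0.25 (0.000316). EEFSEC (-0.11) and PSTK (0.22) did not pass (edgeR adjusted p = 0.335 and 0.409). The sestrins, a family of stress proteins, were likewise named after their values were seen. SESN1 rose by 0.38 and SESN2 by 0.18 (edgeR adjusted p = 4.35e-05 and 0.000751), while SESN3 (0.08) did not pass (0.803).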
